A study of Sparus aurata with 9 samples.

Results

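Caveolins and cavins are the proteins that build caveolae, the small flask-shaped pits of the plasma membrane. Caveolins are hairpin-shaped proteins that insert into the inner face of the membrane and form its scaffold, and cavins are cytosolic proteins that coat the scaffold from the inside. In mammals, CAV1, CAV2 and CAVIN1 are widely expressed and abundant in endothelium, adipocytes and fibroblasts, whereas CAV3 and CAVIN4 are the forms of striated muscle, where caveolae buffer membrane tension and take part in forming the T-tubules. Fish carry several of these genes as duplicated copies, marked a and b in their symbols. Every gene of the deposited table whose symbol named a caveolin 1 to 3 or a cavin 1 to 4 was taken, and 9 of 27159 genes met that rule. They were the caveolin genes CAV3 (ENSSAUG00010005819), a second gene with the symbol CAV3 (ENSSAUG00010000355), cav1 (ENSSAUG00010009010) and cav2 (ENSSAUG00010009007), and the cavin genes cavin1a (ENSSAUG00010022245), cavin1b (ENSSAUG00010009474), cavin2a (ENSSAUG00010013947), cavin4a (ENSSAUG00010018434) and cavin4b (ENSSAUG00010017314).

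The cells were primary myoblasts isolated from fast-twitch muscle of gilthead sea bream (Sparus aurata) and grown until the first of them fused. All of them then spent 12 h in a salt solution with glucose and vitamins that held no amino acids. CTR cells stayed in that solution, 36 h in all, AA cells were moved for 24 h to DMEM, a culture medium that holds amino acids, and Igf-1 cells were kept for 24 h in the amino acid-free solution with recombinant sea bream Igf-1 and bovine serum albumin as its carrier. RNA was sequenced in 3 libraries per group, 9 in all, and the study names independent cultures without saying which library came from which, so p-values measure the spread between these libraries. DMEM differs from the solution of the other groups in more than amino acids, so the AA comparisons are comparisons of media. The albumin is not named for CTR, so Igf-1 against CTR compares Igf-1 with its carrier to cells given neither.

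The deposited estimated counts summed to between 48725967 and 67887824 per library. Library 3 of CTR had the lowest scaling factor (0.791) and library 3 of AA the highest (1.21). Levels of different genes are compared below in FPKM, a fragment density that accounts for exon length and for the mapped fragments of the library and carries no such scaling. Libraries are compared within a gene in normalized counts, that is, counts divided by the scaled library size and multiplied by the mean of the scaled sizes. The groups were compared with edgeR's quasi-likelihood test over the 17687 genes with enough counts. A gene passed if its Benjamini-Hochberg adjusted p did not exceed 0.05 and its log2 fold change (log2FC) was 1 or more in either direction. Of the 9 caveolin and cavin genes 7 had enough counts to be tested, and the second CAV3 gene and cavin2a did not. The median log2FC of all genes tested was −0.01 with AA and 0.00 with Igf-1, both against CTR.

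The study's qPCR primers for cav3 are shown because a pair of genes shares that symbol. The study lists them for ENSSAUG00010005819, the abundant gene, in lower case and 5′ to 3′.
cav3 forward primer: ctgagggtgtggacaaggtcg
cav3 reverse primer: gtcaggccacgataaaccca

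The muscle cavins and the muscle caveolin rose with AA. cavin4b rose 3.82-fold, cavin4a 3.59-fold and CAV3 2.04-fold over CTR, and cavin1a, a copy of the widely expressed coat protein, rose 2.42-fold. cav2 fell to 0.272 of its CTR level. So 5 of the 7 tested genes passed with AA, 4 upwards and 1 downwards, where 8.62% of all tested genes passed, 4.83% upwards and 3.79% downwards. With Igf-1 none of the 7 tested genes passed against CTR in edgeR, where 0.26% of tested genes did. At an unadjusted p under 0.05, cav2 and cavin4b differed there, 2 of the 7, where 9.11% of all tested genes did. DESeq2 called 1 of the 7, cav2, where it called 211 of the 17687 tested genes. Between AA and Igf-1, cavin4a and cavin4b passed, both higher with AA, where 4.33% of tested genes passed and 2.43% were higher with AA.

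The levels of the genes spanned a wide range. cavin4a was the most abundant, with a mean of 97.8 FPKM over the 9 libraries, above 97.3% of all genes. CAV3 followed at 62.4 FPKM, then cavin1a at 44.5 FPKM and cav1 at 44.3 FPKM. cavin4b, cav2 and cavin1b were expressed at a lower level, with means of 9.02, 8.38 and 4.42 FPKM. The last members were at the limit of detection, the second CAV3 gene at 0.0448 FPKM and cavin2a at 0.00955 FPKM. The order was not the same in each group. In CTR, cav1 (49.2 ± 5.64 FPKM, SD, n = 3), cavin4a (45.7 ± 3.24 FPKM) and CAV3 (41.5 ± 4.09 FPKM) lay close together, in that order in every CTR library. In Igf-1, cavin4a (64.3 ± 7.27 FPKM), CAV3 (55.0 ± 5.29 FPKM) and cav1 (47.0 ± 1.22 FPKM) followed each other closely. In AA, cavin4a (183 ± 74.3 FPKM) lay above CAV3 (90.9 ± 9.71 FPKM) and cavin1a (69.3 ± 21.4 FPKM), and cav1 (36.6 ± 1.16 FPKM) came next. cav1 thus had the highest mean of the 9 genes in CTR and lay below CAV3, cavin4a and cavin1a in AA, as a description of the means. FPKM in CTR were deposited for some genes alone, and those of cav1, cavin1b, cavin2a and the second CAV3 gene were rebuilt from their counts.

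**Figure D1:**
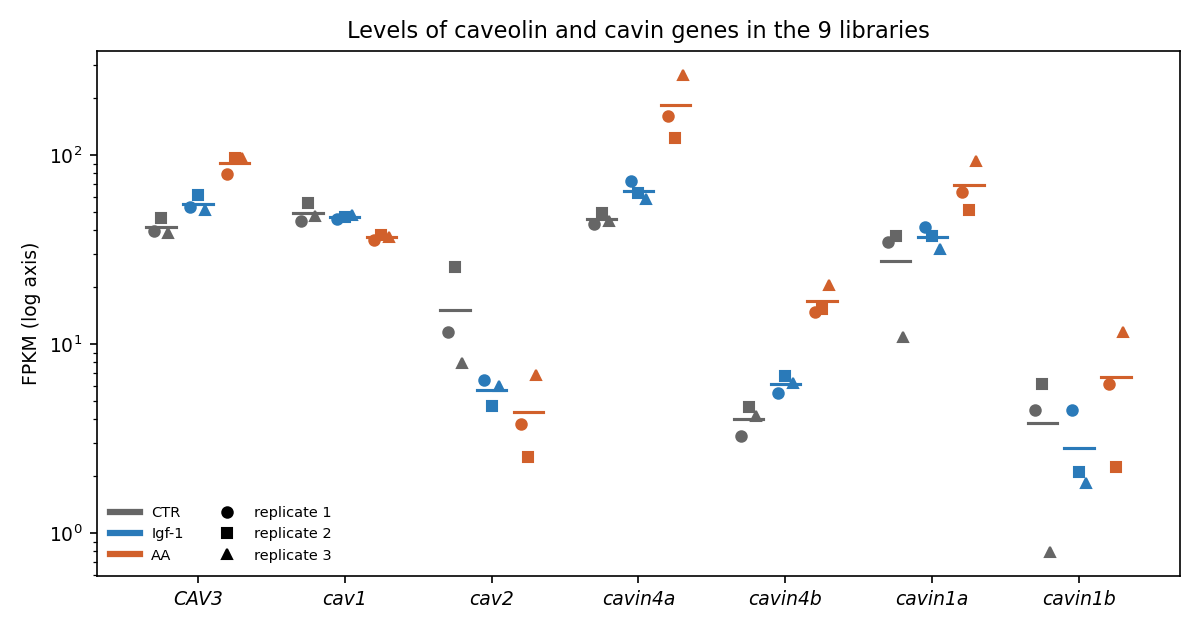
FPKM of the 7 tested caveolin and cavin genes on a log axis, with a point for each library (circle, square and triangle for replicates 1, 2 and 3) and a bar at the mean of each group of 3 libraries. The AA points of CAV3, cavin4a, cavin4b and cavin1a lie above all CTR points, those of cav1 and cav2 lie below them, and those of cavin1b overlap.

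CAV3 encodes the caveolin of striated muscle fibres, and in humans its mutations cause muscle disease. Its normalized counts were 3900, 4426 and 5078 in CTR (replicates 1 to 3), 8227, 10834 and 8292 in AA, and 5123, 6491 and 5654 in Igf-1. Each AA library lay above each library of the other groups, and each Igf-1 library lay above each CTR library. In AA against CTR the log2FC was 1.03 (SE 0.17, adjusted p = 0.0028 by edgeR, 95% interval 0.65 to 1.41). This value sits at the fold threshold. It was 0.94 without CTR replicate 1 and 0.89 without AA replicate 2, with adjusted p-values of 0.015 and 0.0089, so CAV3 then missed the threshold on the fold alone. In Igf-1 against CTR the log2FC was 0.37 (SE 0.17, adjusted p = 0.57, interval −0.01 to 0.74) and did not pass. In AA against Igf-1 it was 0.66 (SE 0.17, adjusted p = 0.038), with an interval of 0.29 to 1.04, past the adjusted p and under the fold threshold.

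cavin4a and cavin4b are the copies of cavin-4, a coat protein of cardiac and skeletal muscle that in mammals is known as MURC. Normalized counts of cavin4a were 6478, 7175 and 8834 in CTR, 25235, 20771 and 34725 in AA, and 10627, 10080 and 9747 in Igf-1. Those of cavin4b were 251, 350 and 426 in CTR, 1195, 1336 and 1389 in AA, and 416, 565 and 541 in Igf-1. AA stood clear of the other groups for both copies, with the lowest AA library above the highest of the rest. Igf-1 lay above CTR without overlap for cavin4a, and overlapped with it for cavin4b. Against CTR, cavin4a rose with AA by a log2FC of 1.84 (SE 0.21, adjusted p = 3.8e-04) and cavin4b by 1.93 (SE 0.23, adjusted p = 4.8e-04, both by edgeR). Against Igf-1, the AA values were higher by 1.41 for cavin4a (SE 0.20, adjusted p = 0.0028) and by 1.37 for cavin4b (SE 0.22, adjusted p = 0.0055). Both copies passed both comparisons under all alternatives tried, with log2FC of 1.62 to 2.15 for cavin4a and 1.75 to 2.15 for cavin4b against CTR. Igf-1 against CTR gave 0.44 for cavin4a (SE 0.20, adjusted p = 0.56, interval −0.01 to 0.88) and 0.57 for cavin4b (SE 0.22, adjusted p = 0.45, interval 0.07 to 1.06), and neither passed. The spread of cavin4a in AA (SD 7126 around a mean of 26910) was wider than in Igf-1 (SD 444 around 10151).

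The copies of cavin-4 moved together while their levels stayed far apart. The ratio of cavin4a to cavin4b in FPKM lay between 10.6 and 13.3 in CTR, 9.23 and 13.2 in Igf-1, and 8.03 and 12.9 in AA. The ranges of the 3 groups overlapped. The profiles of both over the 9 libraries, each centred on its own mean, differed by a root mean square of 0.24 in log2, which was the smallest distance between any 2 of the 7 tested members. The next smallest was that between CAV3 and cavin4b, at 0.42, and the largest was that between cav2 and cavin4b, at 1.61. These distances are descriptions over libraries that share groups.

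cav1 and cav2 encode the caveolins that form joint oligomers outside muscle fibres. In the RefSeq annotation of the species (assembly fSpaAur1.1) the genes are next to each other, a neighbourhood they also have in mammals. Normalized counts of cav1 were 10464, 12669 and 14925 in CTR, 8704, 10058 and 7539 in AA, and 10575, 11935 and 12707 in Igf-1. The AA libraries were below all others, by a small margin, and the CTR and Igf-1 libraries overlapped. With AA the log2FC of cav1 was −0.53 (SE 0.17, adjusted p = 0.066, interval −0.92 to −0.15), which did not pass. With Igf-1 it was −0.11 (SE 0.17, adjusted p = 0.96, interval −0.50 to 0.27), and between AA and Igf-1 −0.42 (SE 0.17, adjusted p = 0.19).

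cav2 differed from its neighbour in size of change and in spread. Its normalized counts were 476, 1026 and 436 in CTR, 163, 119 and 245 in AA, and 260, 210 and 277 in Igf-1. CTR lay above both treated groups without overlap, its replicate 2 stood over the other CTR libraries, and AA and Igf-1 overlapped. cav2 fell by 1.88 on the log2 scale with AA (SE 0.38, adjusted p = 0.0081 by edgeR, interval −2.72 to −1.03). It passed in all 17 alternatives tried, with values from −2.20 to −1.38. With Igf-1 the log2FC was −1.38 (SE 0.37, adjusted p = 0.19, interval −2.21 to −0.55), which did not pass in edgeR, and DESeq2 gave −1.39 with an adjusted p of 0.018. Without CTR replicate 2 the edgeR value was −0.87 (adjusted p = 0.56). Between AA and Igf-1 it was −0.50 (SE 0.37, adjusted p = 0.52, interval −1.32 to 0.33), so no difference between the treatments was detected for cav2.

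cavin1a and cavin1b are the copies of cavin-1, the coat protein without which caveolae do not form in mice. Normalized counts of cavin1a were 3787, 3964 and 1577 in CTR, 7298, 6393 and 8895 in AA, and 4497, 4388 and 3882 in Igf-1. The AA libraries lay above all others, and CTR replicate 3 stood far below the other CTR libraries. cavin1a rose by a log2FC of 1.28 with AA (SE 0.30, adjusted p = 0.016 by edgeR, interval 0.61 to 1.94). Without CTR replicate 3 the log2FC was 0.99 (adjusted p = 0.0038), just under the fold threshold, and in a fit of the 2 groups alone the adjusted p was 0.052. With Igf-1 the log2FC was 0.45 (SE 0.29, adjusted p = 0.77), and between AA and Igf-1 it was 0.82 (SE 0.29, adjusted p = 0.13), neither of which passed. Without CTR replicate 3 the Igf-1 value was 0.13 (adjusted p = 0.84).

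cavin1b was lower and more variable than its copy. Its normalized counts were 538, 721 and 127 in CTR, 770, 306 and 1218 in AA, and 528, 272 and 248 in Igf-1. The 3 groups overlapped, and the lowest library was again CTR replicate 3. The log2FC was 0.72 with AA (SE 0.61, adjusted p = 0.51, interval −0.64 to 2.09), −0.41 with Igf-1 (SE 0.62, adjusted p = 0.96) and 1.13 between AA and Igf-1 (SE 0.62, adjusted p = 0.35). With AA against CTR the log2FC was 0.21 without AA replicate 3, 0.30 without CTR replicate 3, 1.19 without CTR replicate 2 and 1.101 without AA replicate 2, and it did not pass in any of these fits. No change of cavin1b was detectable at this spread, and its intervals reach 2.09 for AA against CTR and 2.51 for AA against Igf-1.

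The second CAV3 gene and cavin2a, a copy of the gene for cavin-2 that bends membranes at caveolae, were close to absent from the counts. The second CAV3 gene held 15 counts in all, 4 in CTR replicate 3 and 11 in AA replicate 2. cavin2a held 16 counts in 3 libraries. About 4 counts stand for 1 sequenced read pair, so these totals rest on a handful of pairs, and no fold is given. Reads of near-identical copies may be split between them, and how the authors treated such reads is not given in the sources used here.

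**Figure D2:**
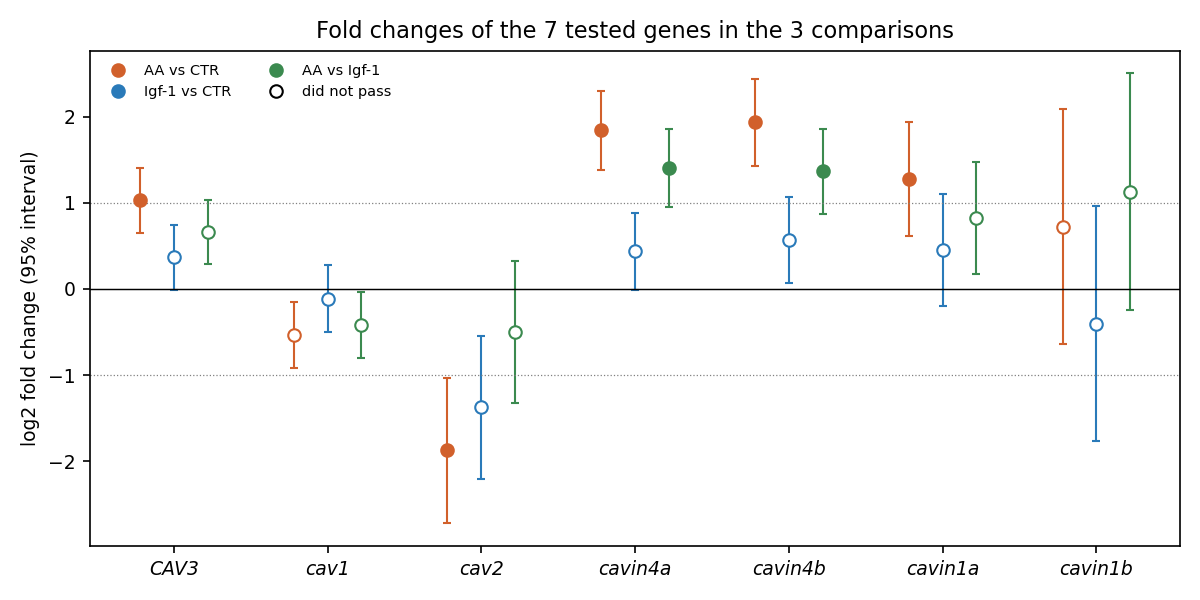
Log2 fold changes with 95% intervals from edgeR for the 7 tested genes in AA vs CTR (orange), Igf-1 vs CTR (blue) and AA vs Igf-1 (green), with filled points for genes that passed and dotted lines at the fold threshold of 1. With AA against CTR 5 points are filled, cavin4b highest at 1.93 and cav2 lowest at −1.88, and no blue point is filled.

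Without regard to the test, 6 of the 7 tested genes had AA libraries that did not overlap with CTR, 4 higher and 2 lower, where 30.7% of all tested genes did so. In Igf-1 against CTR 3 of 7 genes did not overlap, where 17.2% of all tested genes did so, CAV3 and cavin4a higher and cav2 lower. In AA against Igf-1 it was 5 of 7, where the share of all genes was 30.3%. AA and Igf-1 are compared with the same CTR libraries, so the values of these comparisons are not independent of each other.

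The mix of caveolin transcripts was not the same in the 3 groups, which is a description of the levels already given. CAV3 made up 36.3% to 41.3% of the summed caveolin FPKM in the CTR libraries, 48.5% to 54.1% in Igf-1 and 67.1% to 70.5% in AA. cav1 held 43.6% to 50.5%, 41.7% to 45.8% and 26.3% to 29.8% in the same order, and cav2 8.42% to 20.2%, 4.17% to 6.12% and 1.84% to 4.87%. For CAV3 the ranges of the 3 groups were apart from each other. The ratio of CAV3 to cav1 was 0.811 to 0.888 in CTR, 1.06 to 1.30 in Igf-1 and 2.25 to 2.62 in AA. The muscle caveolin was thus below cav1 in every CTR library and above it in every treated library. The summed caveolin FPKM was 106 ± 18.6 in CTR, 108 ± 4.41 in Igf-1 and 132 ± 11.5 in AA (SD, n = 3). The summed cavin FPKM was 81.0 ± 19.0 in CTR, 110 ± 13.2 in Igf-1 and 276 ± 103 in AA. cavin4a held most of it, 50.6% to 73.8% in CTR, 57.6% to 59.5% in Igf-1 and 64.0% to 68.0% in AA. The highest of these CTR shares was that of replicate 3, in which cavin1a was low. Shares, sums and ratios were not tested. In bulk RNA, fewer cells of a type and less RNA per cell cannot be told apart.

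**Figure D3:**
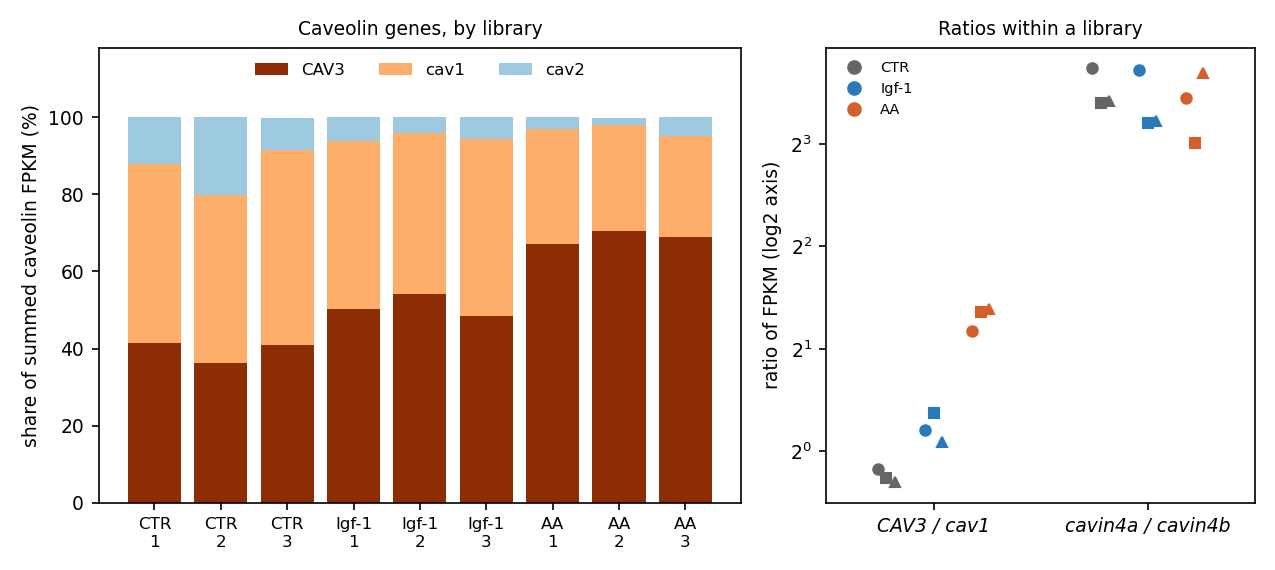
Left, share of each caveolin gene in the summed caveolin FPKM of each library, in percent; the second CAV3 gene, at most 0.205%, is not drawn. Right, ratios of CAV3 to cav1 and of cavin4a to cavin4b in FPKM per library on a log2 axis, with shapes for replicates; the CAV3 to cav1 ratio rises from 0.811 to 0.888 in CTR to 2.25 to 2.62 in AA, and the cavin4a to cavin4b ratios overlap.

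The members fell into steady and variable genes. The pooled SD of log2 values within groups was 0.20 for CAV3 and 0.21 for cav1, smaller than in most tested genes (18.3% and 19.9% of genes had a smaller one). It was 0.26 for cavin4a and 0.27 for cavin4b. It was 0.46 for cavin1a, 0.51 for cav2 and 1.02 for cavin1b, and 87.5% of tested genes had a smaller SD than cavin1b. For the copies of cavin-1, CTR replicate 3 lay far out, with cavin1a 0.86 and cavin1b 1.52 below the log2 mean of CTR. Its cavin4a and cavin4b lay 0.25 and 0.35 above that mean. cav2 deviated most in CTR replicate 2, at 0.78, and stood at −0.45 in CTR replicate 3. In AA, replicate 3 was above the group mean for cav2 (0.54), cavin4a (0.40) and cavin1b (0.88), and replicate 2 was below it for the same genes. With CTR replicate 3 and AA replicate 2 both left out, an alternative chosen after the data were seen, the counts of genes that passed remained 4 higher and 1 lower in AA against CTR, and cavin1b passed in AA against Igf-1 (log2FC 1.52, adjusted p = 0.017 by edgeR). The part of these libraries in the other values was not tested further.

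**Figure D4:**
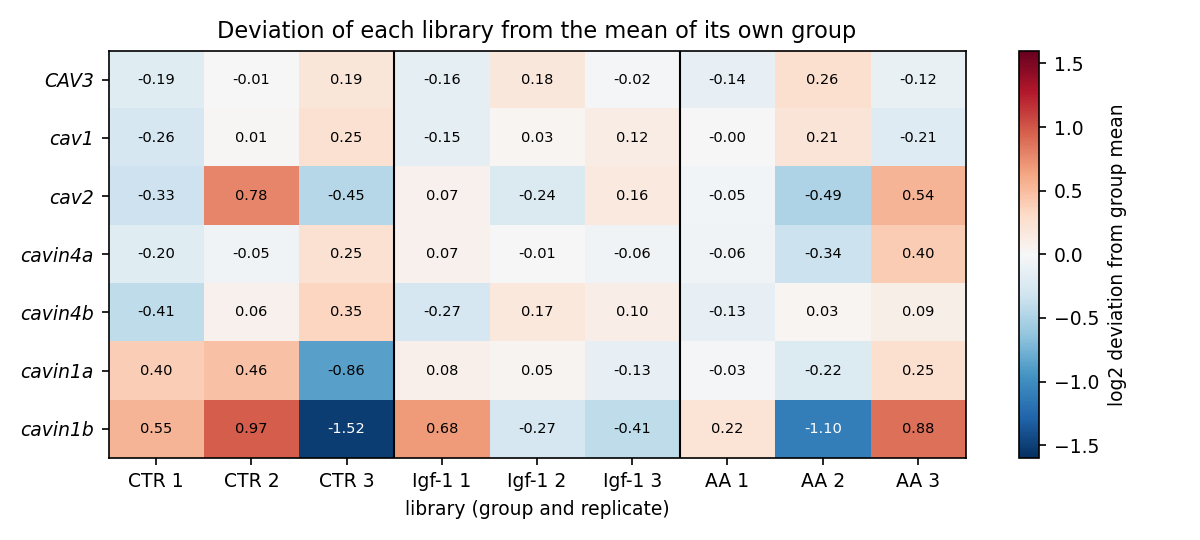
Deviation of each library from the mean of its own group in log2 normalized counts, for the 7 tested genes (rows) and 9 libraries (columns), with the value in each cell. The deepest blue cell is cavin1b in CTR 3 at −1.52, and the rows of CAV3 and cav1 are pale in all libraries.

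The genes whose profile over the 9 libraries came nearest to that of each member were found by the root mean square of the log2 difference after centring, among genes with a symbol. For CAV3 these were unc45b (0.0863), whose product is a chaperone that folds muscle myosin, and nadsyn1 (0.0956), the last enzyme of NAD synthesis. For cavin4a they were myom1a (0.149) and flnca (0.152), which encode the M-band protein myomesin and the muscle filamin. For cavin4b they were dnmt1 (0.127), the maintenance DNA methyltransferase, and trim55b (0.151), a muscle ubiquitin ligase of the sarcomere. For cav2 they were slc38a4 (0.213), an amino acid transporter of the System A family, and fam117ba (0.213). For cav1 they were glud1b (0.0493), glutamate dehydrogenase, and flcn (0.0516), the folliculin that acts in amino acid sensing at the lysosome. For cavin1a they were pbxip1b (0.133) and ube2d4 (0.150), and for cavin1b elmo2 (0.144) and pam (0.228). The distances are small where the member itself varies little, as cav1 does, and over 9 libraries in 3 groups any gene with the same group means comes near.

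Genes that work with caveolae were followed in lists. The list of neck and membrane-bending partners comprised the EHD ATPases, pacsins, dynamin-2 and ror1. Of its 10 tested genes, 1 passed with AA, upwards, where 4.83% of all tested genes did. The median log2FC of the 10 was 0.23 beside −0.01 in all tested genes. That gene was ehd3, with 80.8 to 98.0 normalized counts in CTR and 172 to 272 in AA (log2FC 1.19, SE 0.31, adjusted p = 0.028 by edgeR). ehd1a reached 0.87 (adjusted p = 0.010), under the fold threshold, and ehd4 −0.45 (adjusted p = 0.11). Among the flotillins and other raft scaffold genes, which form membrane domains other than caveolae, 1 of 11 tested genes passed with AA, downwards, where 3.79% of all tested genes did, with a median of −0.35. flot2b fell from 5722 to 6792 normalized counts in CTR to 2633 to 2915 in AA (log2FC −1.17, SE 0.13, adjusted p = 3.2e-04). flot1b stood at −0.51 (adjusted p = 0.032) and anxa6 at 0.56 (adjusted p = 0.074), and neither passed.

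Among 20 tested genes of the muscle surface membrane, the T-tubules and membrane repair, 2 rose and 1 fell with AA, where 4.83% and 3.79% of all tested genes did, and the median log2FC was 0.60. sgcd, which encodes a sarcoglycan of the dystrophin complex, rose by 1.104 on the log2 scale (SE 0.16, adjusted p = 0.0016 by edgeR). Its normalized counts were 829 to 1070 in CTR, 1725 to 2319 in AA and 1247 to 1402 in Igf-1. bin1b, whose product bends membranes into T-tubules, rose by 1.34 (adjusted p = 0.011), and anxa5b, an annexin, fell by 1.01 (adjusted p = 0.017). Both complete the count of 3 and were named for that. sgcg (0.89, adjusted p = 0.0045) and jph2 (0.82, adjusted p = 0.0060), the junctophilin that ties T-tubules to the sarcoplasmic reticulum, missed the fold threshold. Of these 20 genes, 6 had an adjusted p of at most 0.05 upwards and 1 downwards without regard to the fold, where 7.46% and 7.74% of all tested genes did.

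Among 19 tested genes for proteins known to bind or act through caveolins, 1 passed with AA, upwards, where 4.83% of all tested genes did, with a median of −0.07. pfkma, the muscle phosphofructokinase, had 1522 to 3550 normalized counts in CTR and 4888 to 9864 in AA (log2FC 1.46, SE 0.38, adjusted p = 0.025 by edgeR). The receptor genes pdgfra (−0.65, adjusted p = 0.018) and insra (−0.48, adjusted p = 0.028) were under the fold threshold. Between AA and Igf-1, 1 of the 19 passed, where 4.33% of all tested genes did and 2.43% were higher with AA. It was SLC2A4, the glucose transporter that insulin brings to the surface, higher in AA than in Igf-1 by 1.46 (adjusted p = 0.018). Against CTR, SLC2A4 stood at 0.29 with AA (adjusted p = 0.61) and at −1.16 with Igf-1 (adjusted p = 0.18). Of 13 muscle regulators 1 rose with AA, beside the same 4.83%, mef2cb (log2FC 1.18, SE 0.20, adjusted p = 0.0032), with a median of 0.21 over the list. myod1 (ENSSAUG00010004893) stood at 0.64 (adjusted p = 0.0069) and mrtfab at −0.42 (adjusted p = 0.073). The other gene with the symbol myod1 (ENSSAUG00010012905) stood at 0.02 (adjusted p = 0.99). Between AA and Igf-1, no tested gene of the neck, raft, muscle membrane or muscle regulator lists passed in edgeR, beside 4.33% of tested genes. With Igf-1 against CTR, 0 of the 73 tested genes of the 5 lists passed in edgeR, where 0.26% of all tested genes did. An unadjusted p under 0.05 was found for 8 of them, where 9.11% of all tested genes had one, and the medians lay between −0.09 and 0.23. DESeq2 called 1 of the 73, SLC2A4, where it called 211 of the 17687 tested genes. edgeR gave SLC2A4 a log2FC of −1.16 there (adjusted p = 0.18). No list was tested as a whole.

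Markers of the labelled cell type, muscle, were abundant. The 9 skeletal muscle markers in the table summed to 2373 to 3035 FPKM in CTR, 6174 to 7581 in AA and 3776 to 4230 in Igf-1, led by ckma at a mean of 2144 FPKM, and the lowest of them was desmb at a mean of 0.0819 FPKM. ACTA1 (ENSSAUG00010015572), ckma and mylpfb rose with AA, by log2FC of 2.13, 1.05 and 1.06 (adjusted p = 8.8e-04, 0.026 and 0.035 by edgeR). So 3 of the 9 passed upwards and 0 downwards, where 4.83% and 3.79% of all tested genes did. The median log2FC of the 9 was 0.46. Of the rest, myod1 (ENSSAUG00010004893) stood at 0.64 (adjusted p = 0.0069 by edgeR), past the adjusted p and under the fold threshold. myog stood at 0.46 (adjusted p = 0.17) and the other ACTA1 gene (ENSSAUG00010001996) at 0.15 (adjusted p = 0.77). myf5 stood at 0.13 (adjusted p = 0.87), the other myod1 gene (ENSSAUG00010012905) at 0.02 (adjusted p = 0.99) and the scarce desmb at −1.30 (SE 1.42, adjusted p = 0.62). CAV3, cavin4a and cavin4b thus passed upwards, as did ACTA1 (ENSSAUG00010015572), ckma and mylpfb, while the other muscle markers did not pass.

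Markers of cells in which cav1, cav2 and cavin-1 are abundant were also present. The 9 endothelial markers summed to 35.7 to 49.6 FPKM in CTR, 12.4 to 17.3 in AA and 16.8 to 20.3 in Igf-1, and none was at 0 in all libraries. The highest mean over the 9 libraries was that of plvapb, whose protein spans the openings of endothelial caveolae, at 16.3 FPKM (2.84 to 42.2 FPKM). plvapb fell by 3.66 on the log2 scale with AA (adjusted p = 7.8e-05 by edgeR) and by 2.13 with Igf-1 (adjusted p = 0.013). Over the 9 endothelial markers the median log2FC with AA was 0.23, beside −0.01 in all tested genes. Of the 9, 1 passed upwards (kdr, 1.22, adjusted p = 0.0072 by edgeR) and 1 downwards (plvapb), where 4.83% and 3.79% of all tested genes did. Of those that did not pass, cdh5 stood at 1.105 (adjusted p = 0.45), pecam1 at 0.78 (adjusted p = 0.071), tie1 at 0.54 (adjusted p = 0.29), plvapa at 0.21 (adjusted p = 0.62) and kdrl at −0.07 (adjusted p = 0.94). The remaining genes, flt4 and flt1, stood at 0.23 and −0.18 (adjusted p = 0.88 for each). With Igf-1 against CTR the median of the 9 was 0.14, and plvapb alone passed in edgeR, where 0.26% of all tested genes did. There kdr stood at 1.35 (adjusted p = 0.054), pecam1 at 0.92, tie1 at 0.67, flt1 at 0.39 and kdrl at 0.14. plvapa stood at −0.07, cdh5 at −0.28 and flt4 at −0.46. The levels of the defining markers cdh5, kdrl and tie1 averaged 0.646, 0.904 and 0.612 FPKM, and flt4 was lowest at 0.0655 FPKM. The 4 adipocyte markers summed to 131 to 140 FPKM in CTR, 72.2 to 107 in AA and 83.6 to 106 in Igf-1. Of these, 1 passed with AA, downwards, where 3.79% of all tested genes did. It was plin2, the most abundant at 57.9 FPKM, which fell by 1.85 (adjusted p = 0.0016 by edgeR). lpl, at 43.3 FPKM, went the other way at 0.75 (adjusted p = 0.16) and did not pass. cebpa stood at −0.52 (adjusted p = 0.42). PPARG, the least abundant at 2.60 FPKM, stood at −0.10 (adjusted p = 0.81).

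The 6 fibroblast markers, from pdgfra at 32.0 to col1a2 at 788 FPKM, summed to 1963 to 2424 FPKM in CTR, 2326 to 3082 in AA and 2349 to 2664 in Igf-1. With AA against CTR, 0 of these 6 passed, where 8.62% of all tested genes did. Their log2FC went both ways. pdgfra stood at −0.65 (adjusted p = 0.018 by edgeR), dcn at −0.26 and col1a2 at −0.001. lum stood at 0.18, and col1a1a and col1a1b at 0.53 each. The 8 smooth muscle markers, led by tagln at 580 FPKM and with both myh11b genes near 0, summed to 628 to 725, 733 to 1040 and 508 to 631 FPKM in the same order. Of the 6 tested, 1 passed between AA and Igf-1, where 4.33% of all tested genes did and 2.43% were higher with AA. It was acta2, higher in AA by 1.17 (adjusted p = 0.013 by edgeR). In that comparison tagln stood at 0.51, cnn1b at 0.33, pdgfrb at 0.18, myh11a at −0.20 and notch3 at −0.58. Against CTR, 0 of these 6 passed with AA, beside the same 8.62%. There acta2 stood at 0.97 (adjusted p = 0.018 by edgeR), pdgfrb at 0.66 and tagln at 0.20. cnn1b and myh11a stood at 0.02 each and notch3 at −0.87. The 5 leukocyte markers, from csf1ra at 0.997 to lcp1 at 40.0 FPKM, summed to 51.4 to 76.7 FPKM in CTR, 84.4 to 115 in AA and 71.8 to 110 in Igf-1. Here too, 0 of the 5 passed with AA against CTR, beside 8.62% of all tested genes, and directions were mixed. lcp1 stood at 0.77 (adjusted p = 0.041 by edgeR), cd74a at 0.35 and ptprc at 0.25. csf1ra stood at −0.79 (adjusted p = 0.046 by edgeR) and spi1b at −0.54. The part of these cells in the values of the caveolin and cavin genes was not tested.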

How the data were processed

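RNA of 3 CTR, 3 AA and 3 Igf-1 libraries (9 samples, stranded poly(A) kit, paired-end) was analysed. The authors trimmed reads, used HISAT2 to map them to the Ensembl sea bream genome (build not given in the sources used here) and estimated expression with StringTie; how strand was used is not given. The deposited table of estimated counts is called normalized, yet library totals differ. Low values cluster at 4, 8 and 12, so about 4 counts were taken to stand for 1 read pair, which the authors do not state. Plain counts had been planned for, and the estimated counts were rounded in their place. The deposited FPKM tables use 0.0001 for 0; CTR FPKM of 4 members were rebuilt from counts with constants per library, tested on 268 other genes (median error 0.0156%). Columns of the authors' fold changes and p-values were not used. The columns of per-sample values that were used were matched to samples by the sample titles.

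Genes were filtered with filterByExpr, scaled with TMM and fitted as 3 groups with edgeR 4.0.16 (R 4.3.3; common dispersion 0.115). The SE is the absolute log2 fold change over the square root of F. Intervals cover 95%. Named genes were all members, the 3 smallest adjusted p-values with AA per list and the 2 nearest profiles per member. Markers were named for the highest or lowest FPKM or a passed test. Further markers of each cell type were named to show their lists more fully. The members and lists were chosen with earlier results of these data known. The fit was also run on simulated counts, drawn independently for each library. The outcome is not reported here, and such counts hold no deviations shared between libraries. Alternatives were DESeq2 1.42.0, limma 3.58.1 on log2(FPKM + 0.1) and log2(FPKM + 1) for AA against Igf-1, RLE scaling, no filter, no fold threshold, counts divided by 4, fits of 2 groups, a replicate block and each library left out. RefSeq's gene table (assembly fSpaAur1.1) served for names and neighbours; it matched 8 of the 9 members.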

Additional observations from a re-analysis of the deposited data

How the results depend on the processing

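Over the alternatives, 361 of the log2 fold changes of members kept direction and side of the threshold, 4 were no longer past it, 3 came past it and 3 turned sign. The numbers of members that passed were 3 to 4 higher and 1 lower in AA against CTR with a replicate left out, and 2 higher and 0 lower in AA against Igf-1. The sign of Igf-1 against CTR turned for cavin1b without CTR replicate 2 (−0.84 to 0.063 over the replicates left out) and for cav1 without CTR replicate 3 (−0.23 to 0.019) or with CTR 3 and AA 2 both left out (0.019). DESeq2 called 1 member lower with Igf-1, cav2, and 211 genes in all where edgeR called 46. That count was 21 in a fit of the 2 groups alone, 113 with CTR 3 and AA 2 left out and 1 to 58 with a replicate left out. With no fold threshold, the genes called were 2688 in AA against CTR (1525 with it) and 1480 in AA against Igf-1 (765 with it). limma on log2(FPKM + 1) called 457 in the latter, and leaving out a replicate gave 437 to 881, and 1286 to 1566 in AA against CTR. The cause of these differences was not tested.

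The sources do not say whether libraries of the same number share a culture. The deviations of same-numbered libraries correlated at 0.12 to 0.22 for number 1 and at −0.39 to 0.19 for the others, and the highest correlation was across numbers (CTR 3 with AA 2, 0.40). Deviations within a group depend on each other, so these correlations cannot decide whether a number marks a culture. The main fit did not treat the libraries as pairs. With the replicate block, the members called were unchanged, and 0 genes passed in Igf-1 against CTR. limma on FPKM was not run against CTR, whose FPKM cover selected genes. With 3 libraries per group, the intervals of cavin1b, cav2 and cavin1a were the widest among the members.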

Other observations

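A pair of genes outside the naming rule, which the deposited table describes as caveolin-2-like, also moved with AA. They were chosen after their values were seen. A further gene outside the rule whose description names a caveolin, ENSSAUG00010005821, held 35 counts in 4 libraries, too few to be tested. zgc:172270 (ENSSAUG00010000351, named cav4a in RefSeq) had normalized counts of 133, 107 and 121 in CTR, 534, 766 and 758 in AA, and 197, 247 and 277 in Igf-1. The 3 groups did not overlap. Its log2 fold change was 2.51 with AA (SE 0.24, adjusted p = 1.8e-04 by edgeR), 1.00 with Igf-1 (SE 0.24, adjusted p = 0.13) and 1.52 between AA and Igf-1 (SE 0.23, adjusted p = 0.0040).

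zgc:158296 (ENSSAUG00010004940, named cav4b in RefSeq) had normalized counts of 16.1, 37.4 and 46.2 in CTR, 175, 260 and 191 in AA, and 97.8, 203 and 170 in Igf-1. Both treated groups lay above CTR and overlapped with each other. Its log2 fold change was 2.66 with AA (SE 0.44, adjusted p = 0.0029 by edgeR), 2.25 with Igf-1 (SE 0.44, adjusted p = 0.070) and 0.41 between AA and Igf-1 (SE 0.41, adjusted p = 0.66). Both genes rose with AA, as CAV3 did, whereas cav2, which shares their description, fell. RefSeq does not name either of them cav2. The RefSeq neighbours of zgc:172270 include oxtrb, and those of CAV3 include oxtra, whereas cav2 lies beside cav1. Their kinship to the members was not tested.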
